A study of Homo sapiens with 24 samples.

Results

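Untreated HepG2 cells carrying a hairpin against METTL14 (shMETTL14) were compared with untreated HepG2 cells carrying a control hairpin (shCtrl). HepG2 is a human hepatocellular carcinoma line that keeps many functions of fetal liver. The comparison uses 4 of the series' 24 RNA sequencing libraries, the 2 labelled shMETTL14 and the 2 labelled shCtrl at 0 h, and they were taken by those labels. The other 20 libraries are of the same lines at 1, 3 and 6 h of actinomycin D, an inhibitor of transcription, and of a line with a hairpin against SETD2 (shSETD2) at all 4 times. Per the labels, every line was made by lentiviral infection and selection in 1 µg/mL puromycin, so the controls carry a virus and a hairpin too. The knockdown is labelled with 1 hairpin name and was kept as a stably infected line. The series' design text calls the 2 libraries of a group biological replicates. No label says whether they came from separate infections, so a p-value here speaks of the spread among these libraries, which may be technical. Of 34618 genes in the count table, 14887 had enough counts to be tested.

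METTL14 is the RNA-binding partner of METTL3 in the enzyme that writes N6-methyladenosine (m6A) on messenger RNA as it is transcribed. METTL3 carries the catalytic site, METTL14 holds the RNA, and further subunits such as WTAP place the enzyme in the nucleus. Reader proteins of the YTH and IGF2BP families bind methylated transcripts and are known to alter their decay, export and translation. In liver, m6A has been linked to lipid metabolism, to hepatocyte maturation and to liver cancer.

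The 4 libraries held 22.1 and 25.3 M counts (shCtrl) and 26.9 and 23.8 M counts (shMETTL14), and the 24 libraries between 18.3 and 31.4 M. CPM are counts per 1000000 of the library total multiplied by its TMM scaling factor. A gene with 3 counts in a library therefore stood at 0.0936 to 0.119 CPM, and smaller values rest on fewer counts. Mitochondrial transcripts took 6.89% to 7.09% of the counts of the 4 libraries. All 15 genes of a hepatocyte marker list were tested, and 11 were higher and 1, AFP, was lower in shMETTL14. Of 9 fibroblast markers, 8 stood under 1 CPM in all 4 libraries, and COL1A2, DCN, THY1, POSTN and FAP had no count; their sum was 4.35 to 5.14 CPM in shCtrl and 7.16 to 7.33 CPM in shMETTL14, nearly all of it COL1A1. Of 12 blood cell markers, 9 stood under 1 CPM in all 4, with PTPRC, CD3E, MS4A1 and HBB at 0. LYZ stood at a mean of 1066 CPM in shCtrl and 2101 CPM in shMETTL14, with exons that overlap another annotated gene. Without LYZ the summed blood markers came to 2.65 and 3.07 CPM in shCtrl and 3.34 and 3.70 CPM in shMETTL14. Of 8 markers of HEK293T, the cells that made the virus, 6 stood under 1 CPM, and NEFL and NEFM had no count. Their sum was 3.56 and 3.83 CPM in shCtrl and 6.02 and 5.93 CPM in shMETTL14. Most of it was PAX8, which was called higher (1.02 log2). Without PAX8 they came to 1.34 and 0.966 CPM in shCtrl and 0.687 and 0.917 CPM in shMETTL14. Endothelial and stellate markers summed to 2423 and 2400 CPM in shCtrl and 1564 and 1527 CPM in shMETTL14, nearly all of it RELN, which was called lower (-0.66 log2). Without RELN they came to 40.9 to 45.2 CPM in shCtrl and 44.8 to 47.6 CPM in shMETTL14, with KDR, TEK and STAB2 at 0, and biliary markers to 977 to 989 CPM and 877 to 903 CPM. These sums hide single changes. Of 5 tested endothelial and stellate markers 3 were higher, all by over 1 log2, and 2 lower. Of 8 tested biliary markers 2 were higher, 1 of them by over 1 log2, and 2 lower. Over all genes tested, 23.1% were higher and 25.1% lower. The part of these markers in the results was not tested. CPM give the share of a gene in a library, so in these bulk samples fewer cells of a type and less RNA per cell cannot be told apart.

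METTL14 (ENSG00000145388, chromosome 4, 119606523 to 119636588 on GRCh37) stood at 29.3 and 30.04 CPM in the shCtrl libraries and 15.01 and 13.9 CPM in the shMETTL14 libraries. The pairs lay far apart, and the knockdown libraries kept 48.8% of the control level (log2 fold change -1.03, SE 0.0992, adjusted p = 1.26e-08). SETD2, the target of the other hairpin, stood at 131 and 129 CPM in the shCtrl libraries and 126 and 124 CPM in the shMETTL14 libraries and was not called (log2 fold change -0.05, SE 0.0635, adjusted p = 0.557). Of 12 genes of the m6A methyltransferases and their cofactors, 5 were lower in shMETTL14 and 0 higher. Beside METTL14 these were RBM15B and RBM15, adaptors that bring the enzyme to RNA, METTL3 and METTL16, which methylates a separate set of RNAs. METTL3 went from 73 and 74.6 CPM in shCtrl to 57.5 and 55.5 CPM in shMETTL14 (log2 fold change -0.38, SE 0.0497, adjusted p = 1.15e-06), but its exons overlap those of TOX4, so its count is uncertain. WTAP (-0.10, adjusted p = 0.378) was not called, and RBM15 was named after its value was seen, to complete the 5. Of 14 readers and erasers, 6 fell and 3 rose, 1 of the rises in each setting described below. The reader YTHDF1, which promotes translation of methylated messages, stood at 150.0 and 142 CPM in the shCtrl libraries and 75.4 and 76.9 CPM in the shMETTL14 libraries (log2 fold change -0.94, SE 0.0567, adjusted p = 6.18e-12). Its pairs did not overlap, which held for 77.9% of all genes tested and was part of the rule for naming genes. These counts can be read against all genes: 25.1% of the genes tested were lower in shMETTL14, 23.1% were higher, and 48.1% were called in either direction.

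In all, 3433 genes were higher and 3733 lower in shMETTL14 at an adjusted p under 0.05 (edgeR quasi-likelihood test, Benjamini-Hochberg adjustment over the 14887 genes). The 2 libraries of one group lay above both of the other for 7161 of the 7166 genes called, and for 77.9% of all genes tested. Most changes were small: the median absolute log2 fold change of a called gene was 0.46. Changes over 1 log2 (8.32% of genes tested) were mostly rises, with 999 higher (6.71% of genes tested) and 239 lower (1.61%). Over 3 log2 there were 66 rises and 10 falls. How many genes count as higher depends on the scaling, since the median of all genes moved between -0.11 and 0.05 log2 over the scalings and left-out libraries tried. Higher calls made up 47.9% of calls here, 56.4% when scaled by library size alone, 38.03% with a trend in GC content removed and 33.4% to 34.7% without 1 of the 4 libraries. A total of 1652 rises and 2950 falls were called under relative log expression factors, under library size alone, with the GC trend removed and without each library in turn. Without 1 of the 4 libraries the median of all genes was -0.11 to -0.10 log2. It was -0.01 with all of them, and also without 1 of them when the scaling factors of all 24 libraries were kept. The 2 totals therefore do not compare how well rises and falls repeat. Called genes named below are in that set unless their call is said to be lost or they were named for the 1 h contrast.

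**Figure D1:**
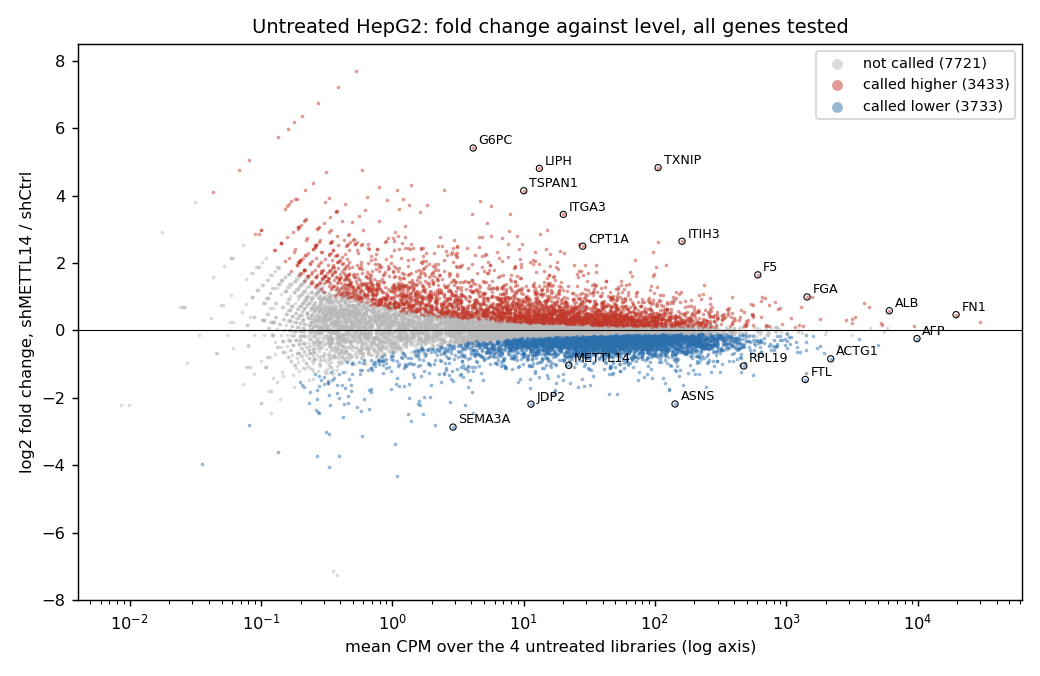
Log2 fold change of shMETTL14 over shCtrl (vertical) against the mean CPM over the 4 untreated libraries (horizontal, log axis), 1 point per gene tested, red for the 3433 genes called higher and blue for the 3733 called lower. The tall rises lie at the left, among genes with few counts, and the highly counted genes at the right carry more blue than red points.

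The direction of change went with the level of the gene. The genes tested were divided by mean CPM into 5 groups of equal size. Among the 2978 genes of the lowest group, up to 1.35 CPM, 644 were higher and 120 lower. Among the 2978 genes of the highest group, from 63.9 CPM, 554 were higher (18.6%) and 1387 lower (46.6%). Of the 999 rises over 1 log2, 607 started from a control mean under 1 CPM and 833 from under 5 CPM. Of the 239 falls over 1 log2, 98 ended at a knockdown mean under 1 CPM and 146 under 5 CPM. The filter for testing took all 12 groups, so a gene near 0 in shCtrl was tested only if counted in another group. The part of this filter in the rises at low level was not tested. At 100 CPM or more, 15 genes rose and 28 fell by over 1 log2, out of 1785. Across genes, Spearman's rho of the log2 fold change was -0.31 with the mean CPM, 0.03 with transcript GC content and -0.03 with exon length, given as descriptions, since genes are not independent replicates and the fold change and the mean share their counts.

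**Figure D2:**
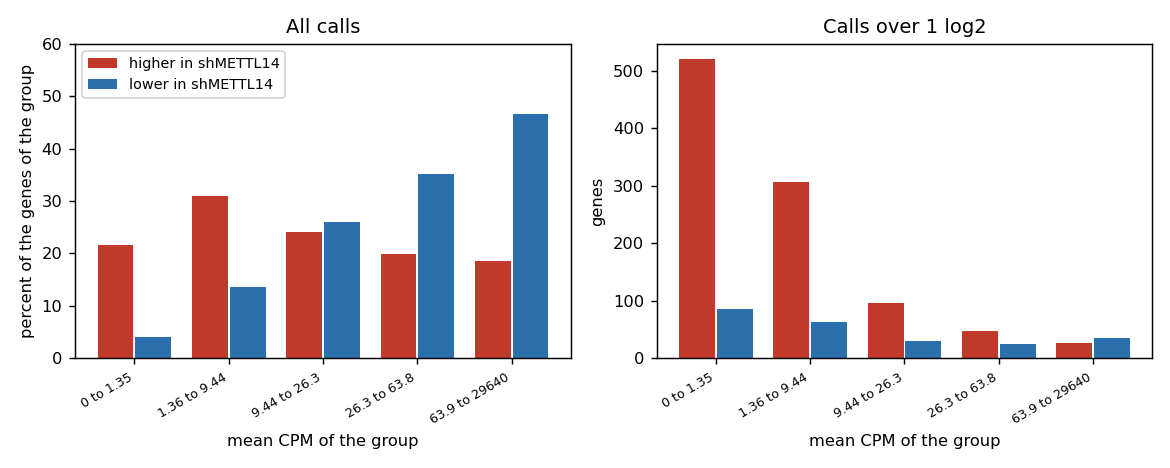
Genes called higher (red) and lower (blue) in shMETTL14 in 5 groups of genes of equal size by mean CPM (horizontal), as a percent of the genes of each group (left) and as the number of calls over 1 log2 (right). Lower calls grow from 4.03% in the lowest group to 46.6% in the highest, while rises over 1 log2 fall from 521 genes to 27.

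A glucose-responsive pair, TXNIP and ARRDC4, rose steeply. TXNIP (ENSG00000117289, chromosome 1, 145438469 to 145442635 on GRCh37), an arrestin that restrains glucose uptake and binds thioredoxin, stood at 7.51 and 6.86 CPM in the shCtrl libraries and 204 and 204 CPM in the shMETTL14 libraries, a 28.4-fold rise (SE 0.0688 log2, adjusted p = 4.13e-23). Its paralog ARRDC4 stood at 1.26 and 1.34 CPM in the shCtrl libraries and 13.5 and 15.2 CPM in the shMETTL14 libraries (log2 fold change 3.45, SE 0.160, adjusted p = 7.84e-14). The 2 libraries of a group differed little beside the gap between the groups for both genes. Both are known targets of MondoA, a transcription factor that works with MLX and responds to glucose phosphates. In a list of 12 tested genes of this system, 6 rose and 2 fell (median log2 0.45, against -0.01 over all genes tested). Without shMETTL14 replicate 1 the median was 0.10, and 5 of the rises and 1 of the falls held in each setting. ARRDC3, another arrestin, went from 6.80 and 5.97 to 11.2 and 12.7 CPM. PKLR, the liver pyruvate kinase, rose by 1.47 log2, though its exons overlap those of HCN3. The falls were MLX (-0.24, overlapping PSMC3IP) and MLXIPL, the liver paralog of MondoA (-0.24), whose call was lost in some settings. MLXIP, the gene of MondoA itself, was named for that role and was not called, at 60.4 and 58.2 CPM in shCtrl and 60.1 and 56.97 CPM in shMETTL14.

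The TXNIP promoter holds a pair of E-box-like elements of the kind bound by MondoA and MLX, and it is shown because TXNIP had one of the largest rises. The stretch is from RefSeq (GRCh38.p14, chr1:145996620-145996699, minus strand), from 120 to 41 bases before the start, with the match in capitals: CACGNG, then 5 bases, then CACGNG, where N is any base.
TXNIP: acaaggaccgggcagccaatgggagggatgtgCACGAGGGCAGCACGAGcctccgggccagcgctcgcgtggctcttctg
That pattern, searched on both strands from 250 bases before to 50 after each start, lay in promoters of 20 of 27305 genes of the RefSeq table (0.0732%). A match describes the letters and is not evidence of binding.

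Genes of fasting liver metabolism were mostly higher. Of 18 tested genes of gluconeogenesis and glycogen, 10 rose and 2 fell (median log2 0.36), and 7 of the rises held in each setting. The median was 0.19 without shCtrl replicate 1, where that of all genes was -0.10. It was 0.16 over genes with a mean of at least 5 CPM over all 24 libraries, where that of all genes was -0.08. G6PC, the glucose-6-phosphatase that releases free glucose, went from 0.158 and 0.207 CPM to 7.71 and 8.43 CPM (log2 fold change 5.41, SE 0.252, adjusted p = 8.12e-14). PPP1R3B, the liver glycogen-targeting subunit of protein phosphatase, went from 0.277 and 0.241 to 2.96 and 3.07 CPM. PCK1, the cytosolic phosphoenolpyruvate carboxykinase, went from 0.632 and 1.14 to 4.90 and 5.01 CPM (log2 fold change 2.45, SE 0.211, adjusted p = 2.26e-09). These 3 genes were close to 0 in both control libraries. PC, the pyruvate carboxylase that feeds the same route, started higher and went from 41.03 and 43.01 to 77.6 and 75.3 CPM. PCK2, the mitochondrial carboxykinase, went the other way, from 302 and 308 CPM to 126 and 124 CPM (log2 fold change -1.29, SE 0.0763, adjusted p = 6.10e-12).

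Of 31 tested genes of fatty acid oxidation and ketogenesis, 20 rose and 6 fell, and 11 of the rises held in each setting. CPT1A, which carries fatty acids into mitochondria, stood at 8.66 and 8.28 CPM in the shCtrl libraries and 47.8 and 48.1 CPM in the shMETTL14 libraries (log2 fold change 2.50, SE 0.116, adjusted p = 7.84e-14). BDH1, an enzyme of ketone body metabolism, went from 7.35 and 7.69 to 28.1 and 27.6 CPM. The groups of both genes lay far apart. The falls included ACSL1, which activates fatty acids, from 108 and 111 to 39.7 and 39.8 CPM, and PLIN2, a coat protein of lipid droplets, from 368 and 385 to 162 and 159 CPM. Of 20 genes of lipogenesis, 12 fell and 5 rose (median -0.24). GPAM, which starts triglyceride synthesis, changed by -0.84 log2 and ACACA, an acetyl-CoA carboxylase, by -0.64, whereas LPIN1, a phosphatidate phosphatase, rose by 1.12. In 27 genes of cholesterol synthesis and uptake, 6 rose (22.2%) and 8 fell (29.6%), near the 23.1% and 25.1% of all genes tested. Their median changed sign over the scalings (-0.13 to 0.06). Glycolysis was mixed as well, with 9 rises and 6 falls among 26 genes and a median that changed sign over the scalings. Its hexokinases moved in opposite directions: HK2 stood at 217 and 215 CPM in shCtrl and 94.4 and 95.7 CPM in shMETTL14 (log2 fold change -1.18, SE 0.0435, adjusted p = 1.52e-15), and HK1 at 2.33 and 2.17 CPM in shCtrl and 8.30 and 9.17 CPM in shMETTL14 (log2 fold change 1.95, SE 0.158, adjusted p = 7.94e-10). SLC2A2, the liver glucose transporter, went from 6.76 and 6.93 to 33.6 and 34.5 CPM.

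In the insulin and FOXO list 11 of 23 genes rose and 6 fell, and 4 of the rises held in each setting. IGFBP1, a secreted binding protein known to be repressed by insulin, stood at 49.6 and 49.9 CPM in the shCtrl libraries and 190.2 and 196 CPM in the shMETTL14 libraries (log2 fold change 1.96, SE 0.0524, adjusted p = 7.69e-18). INSR, the insulin receptor, went from 88.1 and 83.7 to 131 and 132 CPM, while FOXO3 went from 43.3 and 41.7 to 27.96 and 30.2 CPM. Among 11 genes of the insulin-like growth factor system 6 rose and 1, IGF2R, fell. IGFBP2 rose by 1.69 log2 and the receptor IGF1R by 0.60. IGFBP7 rose by 2.79, with exons that overlap POLR2B.

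**Figure D3:**
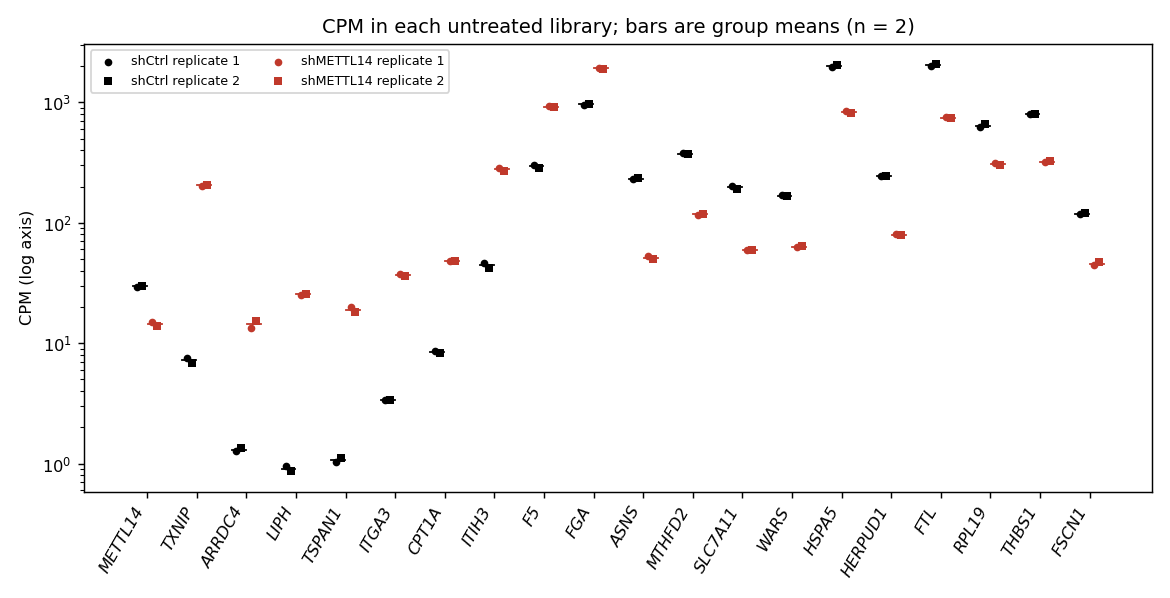
CPM (log axis) of 20 genes in each of the 4 untreated libraries, black for shCtrl and red for shMETTL14, circles for replicate 1 and squares for replicate 2, with bars at the group means. For every gene drawn the 2 libraries of a group sit almost on each other. The groups do not overlap, which held for 77.9% of all genes tested. TXNIP goes from 7.19 to 204 CPM and ASNS from 233 to 51.3 CPM.

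The amino acid response fell almost throughout. ATF4 is the transcription factor that switches on amino acid synthesis and import when amino acids run short or the endoplasmic reticulum is stressed. Of 26 tested genes of its response, 24 fell, 14 of them by over 1 log2, and 2 rose (median -1.06); all 24 falls held in each setting. ASNS, the asparagine synthetase, stood at 231 and 235 CPM in the shCtrl libraries and 52.5 and 50.1 CPM in the shMETTL14 libraries (log2 fold change -2.18, SE 0.0459, adjusted p = 6.81e-20). JDP2, a repressor of the AP-1 family, went from 18.02 and 19.2 CPM to 3.84 and 4.37 CPM. TRIB3, a pseudokinase that ATF4 induces, went from 196 and 198 to 60.5 and 56.6 CPM, and DDIT4, an inhibitor of mTORC1, from 70.5 and 70.01 to 19.5 and 18.2 CPM. For each of these genes the shMETTL14 pair lay far below its control pair. The same held for CTH, an enzyme of cysteine synthesis, which went from 17.1 and 17.2 to 5.52 and 4.90 CPM, and for MTHFD2, a mitochondrial folate enzyme, which went from 376 and 373 to 117 and 118 CPM. ATF4 itself, named for its role, stood at 296 and 307 CPM in the shCtrl libraries and 175 and 166 CPM in the shMETTL14 libraries (log2 fold change -0.83, SE 0.0584, adjusted p = 8.54e-11). ALDH18A1, which makes the proline precursor, was the one member to rise in every setting, from 268 and 273 to 381 and 369 CPM; the other rise, GPT2, was lost in some.

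All 20 cytosolic aminoacyl-tRNA synthetases, which load amino acids onto transfer RNA, were lower (median -0.76, range -1.40 to -0.23), and all 20 held in each setting. WARS, for tryptophan, went from 169 and 166 to 62.8 and 63.98 CPM (log2 fold change -1.40, SE 0.0492, adjusted p = 6.95e-16), and SARS, for serine, from 197 and 200.3 to 87.3 and 88.2 CPM. GARS, for glycine, went from 379 and 383 to 185 and 182 CPM. QARS, for glutamine, was named as the smallest fall and went from 206 and 205 to 176 and 175 CPM (adjusted p = 0.00280). Of 19 amino acid transporters 13 fell and 3 rose (median -0.39). SLC7A11, the cystine carrier, stood at 204 and 191 CPM in the shCtrl libraries and 59.04 and 59.3 CPM in the shMETTL14 libraries (log2 fold change -1.74, SE 0.125, adjusted p = 2.55e-09), and SLC3A2, its partner chain, went from 247 and 252 to 106 and 104 CPM. SLC7A1, a carrier of arginine and lysine, went from 283 and 273 to 142 and 140.5 CPM. The rises were SLC7A2, another cationic carrier (0.36), SLC38A4, a carrier of small neutral amino acids (0.72), and SLC43A2, a carrier of large neutral amino acids (1.59).

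A composite element written TGATGNAA, which ATF4 binds with C/EBP partners, was searched on both strands of the RefSeq promoters because these genes fell together. Of the 20 synthetases, 16 had a promoter in the table, and 7 of those held the element (43.8%), against 4.46% of the 27305 genes of the table. The ATF4 list had promoters for 20 of 26 members, of which 4 held the element. The stretches below (GRCh38.p14) show the element in capitals in 3 genes that fell, ASNS (chr7:97872429-97872508, minus strand, 100 to 21 bases before the start), AARS, the alanine synthetase (chr16:70289647-70289726, minus strand, 220 to 141 before), and HERPUD1 (chr16:56931932-56932011, plus strand, 210 to 131 before). In AARS and HERPUD1 it is read on the opposite strand, as TTGCATCA.
ASNS: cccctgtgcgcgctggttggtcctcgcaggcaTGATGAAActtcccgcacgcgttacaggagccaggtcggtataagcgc
AARS: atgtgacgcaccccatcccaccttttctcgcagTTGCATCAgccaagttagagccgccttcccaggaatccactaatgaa
HERPUD1: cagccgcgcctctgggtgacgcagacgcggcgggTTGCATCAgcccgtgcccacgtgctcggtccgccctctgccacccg
AARS stood at 332 and 329.9 CPM in shCtrl and 175 and 173 CPM in shMETTL14 (log2 fold change -0.92, SE 0.0543, adjusted p = 3.83e-12), and was named for its promoter. The element also lay 137 bases before the start of G6PC, which rose, so the letters alone did not sort genes by direction.

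Chaperones of the endoplasmic reticulum fell with this response. Of 30 tested genes of the unfolded protein response, 25 fell and 2 rose (median -0.50), and 24 of the falls held in each setting. HSPA5, also called BiP, the main chaperone of this compartment, stood at 1964 and 2029 CPM in the shCtrl libraries and 856 and 821 CPM in the shMETTL14 libraries (log2 fold change -1.25, SE 0.0388, adjusted p = 6.79e-17). HERPUD1, which takes misfolded proteins to degradation, went from 247 and 245 to 80.9 and 78.8 CPM (log2 fold change -1.62, SE 0.0486, adjusted p = 3.87e-17). MANF, a secreted stress protein, went from 115 and 124 to 63.6 and 61.97 CPM, and HSP90B1, the chaperone GRP94, from 1689 and 1716 to 1150 and 1139 CPM. No pair overlapped its control, which held for 77.9% of all genes tested and was part of the rule for naming genes. HYOU1 also fell (-1.23), with exons that overlap a second annotated gene. ATF6, a stress sensor that is also a transcription factor, went up, from 73.5 and 73.7 to 90.7 and 93.1 CPM (log2 fold change 0.32, SE 0.0556, adjusted p = 5.40e-05). In the cytosol and mitochondria 12 of 20 heat shock chaperones fell and 1 rose. HSPA9, the mitochondrial Hsp70, went from 556 and 573 to 333 and 325 CPM, and HSP90AB1 from 2072 and 2110 to 1544 and 1516 CPM.

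The endoplasmic reticulum stress element, written CCAAT, then 9 bases, then CCACG, and bound by ATF6 with NF-Y, was searched in the same way. It lay in the promoters of 8 of the 28 matched genes of the unfolded protein response list (28.6%) and in 25 of the 27305 genes of the table (0.0916%). It is shown in HSPA5 (chr9:125241364-125241443, minus strand, 100 to 21 bases before the start) and, on each strand once, in HSP90B1 (chr12:103930190-103930349, plus strand, 220 to 61 before).
HSPA5: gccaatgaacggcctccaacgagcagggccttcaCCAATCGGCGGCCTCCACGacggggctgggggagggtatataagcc
HSP90B1: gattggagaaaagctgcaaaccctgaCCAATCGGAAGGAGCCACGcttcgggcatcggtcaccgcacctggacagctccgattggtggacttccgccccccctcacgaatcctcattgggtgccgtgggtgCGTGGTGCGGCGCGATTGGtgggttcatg

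Genes that build and run ribosomes fell together. Of 43 genes of nucleolar ribosome assembly and RNA polymerase I, 42 fell and 0 rose (median -0.61), 41 of them in each setting. NCL, nucleolin, stood at 1527 and 1583 CPM in the shCtrl libraries and 1014 and 983 CPM in the shMETTL14 libraries (log2 fold change -0.64, SE 0.0398, adjusted p = 9.94e-12). DKC1, which modifies ribosomal RNA, went from 149 and 154 to 92.7 and 90.8 CPM, and WDR43, an assembly factor, from 249.7 and 240.5 to 136 and 143 CPM. Of 79 cytosolic ribosomal protein genes 74 fell and 0 rose (median -0.51). RPL19 stood at 623 and 659 CPM in the shCtrl libraries and 314 and 302 CPM in the shMETTL14 libraries (log2 fold change -1.05, SE 0.0493, adjusted p = 8.18e-14), and RPS6, a target of the mTOR pathway, went from 915 and 904 to 619.9 and 601 CPM. Ribosomal protein genes have many near-identical processed copies in the genome, so the reads counted for each are uncertain.

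Translation factors and the hosts of small nucleolar RNAs moved in the same direction. Of 43 initiation and elongation factors 36 fell and 0 rose (median -0.45). EIF4EBP1, a repressor of cap-dependent initiation, went from 75.2 and 75.4 to 32.4 and 32.7 CPM (log2 fold change -1.21, SE 0.0861, adjusted p = 9.77e-11). EEF2, which moves the ribosome along the message, went from 2892 and 2971 to 2149 and 2081 CPM. Of 18 host genes of small nucleolar RNAs, 14 fell, all 14 in each setting, and 2 rose, both lost in some. SNHG5 stood at 80.5 and 93.05 CPM in the shCtrl libraries and 49.8 and 45.4 CPM in the shMETTL14 libraries (log2 fold change -0.87, SE 0.0706, adjusted p = 9.21e-10). Of 52 mitochondrial ribosomal proteins 36 fell and 2 rose (median -0.27). Of 76 nuclear-encoded respiratory chain genes 21 fell, 11 of them in each setting, 6 rose, 0 of them in each setting, and 49 were not called. The 27.6% of respiratory chain genes that fell is near the 25.1% of all genes tested, while 7.9% rose, against 23.1%. The transcription factor MYC, known to drive ribosome assembly, stood at 176 and 173 CPM in the shCtrl libraries and 106 and 102 CPM in the shMETTL14 libraries (log2 fold change -0.74, SE 0.0627, adjusted p = 1.65e-09). Of the 14 tested genes of its network and targets 9 fell and 2 rose. ODC1, which starts polyamine synthesis, went from 327 and 326 to 167 and 168 CPM and SRM, the spermidine synthase, from 65.4 and 68.3 to 27.99 and 26.2 CPM. LDHA, lactate dehydrogenase, went up, from 411 and 419.6 to 712 and 699.9 CPM.

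**Figure D4:**
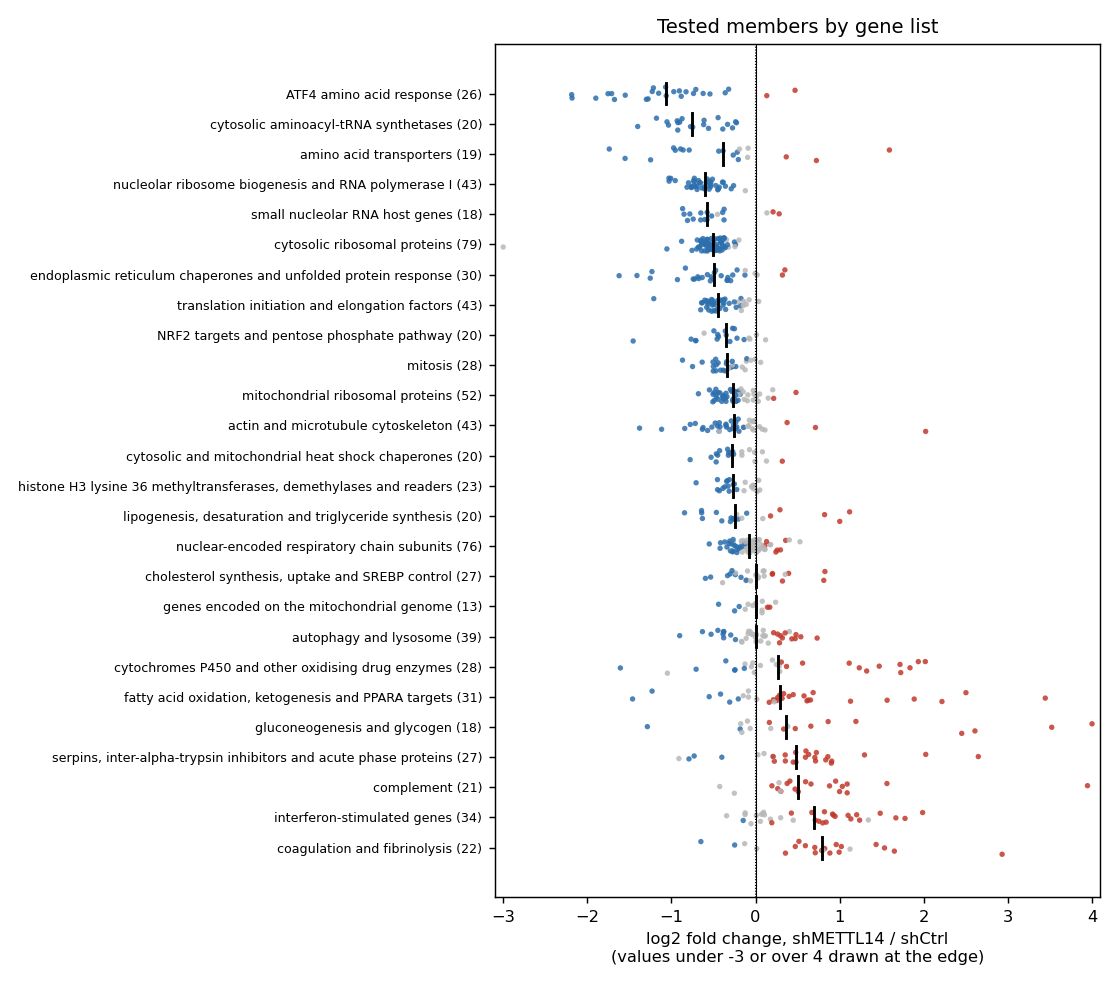
Log2 fold change of shMETTL14 over shCtrl for each tested member of 26 gene lists, red called higher, blue called lower, grey not called, with a black bar at the list's median and the number of tested members in parentheses. The lists run from a median of -1.06 for the ATF4 response to 0.79 for coagulation; the dotted line marks the median of all genes, -0.01.

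The redox genes controlled by NRF2 were lower or not called. Of 20 genes of this list with the pentose phosphate pathway, 15 fell and 0 rose (median -0.35). FTL, the light chain of the iron store ferritin, stood at 2019 and 2071 CPM in the shCtrl libraries and 753 and 738 CPM in the shMETTL14 libraries (log2 fold change -1.46, SE 0.0732, adjusted p = 2.17e-12). The groups were far apart, but FTL also has near-identical copies, so its count is uncertain. TXNRD1, thioredoxin reductase, went from 259 and 262 to 151 and 155 CPM, and NQO1, a quinone reductase, from 447 and 444 to 326 and 327 CPM. In the separate list of 19 thioredoxin and peroxidase genes, 4 fell and 4 rose (21.1% each), near the 25.1% and 23.1% of all genes tested. There TXN, thioredoxin, went from 87.6 and 85.8 to 59.9 and 62.01 CPM, and the secreted peroxidase GPX3 from 47.5 and 42.01 to 97.7 and 97.4 CPM.

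Proteins that the liver secretes into plasma were mostly higher. Of 22 coagulation genes 16 rose and 2 fell (median 0.79). F5, clotting factor V, stood at 300.0 and 287 CPM in the shCtrl libraries and 930.5 and 911 CPM in the shMETTL14 libraries (log2 fold change 1.65, SE 0.0460, adjusted p = 1.22e-17). FGA and FGB, chains of fibrinogen, went from 959 and 968 to 1929 and 1908 CPM and from 465 and 469 to 915 and 901 CPM. SERPINC1, which encodes antithrombin, went the other way, from 46.5 and 48.4 to 28.7 and 31.9 CPM (log2 fold change -0.65, SE 0.0645, adjusted p = 2.14e-08). Of 21 complement genes 17 rose and 0 fell (median 0.51). MASP1, a protease of the lectin pathway, went from 5.30 and 4.41 to 14.4 and 14.1 CPM, and VTN, vitronectin, from 97.5 and 98.4 to 211 and 205 CPM. Of 27 protease inhibitors and acute phase genes 20 rose and 3 fell. ITIH3, a chain that binds hyaluronan, stood at 46.1 and 42.4 CPM in the shCtrl libraries and 286 and 269 CPM in the shMETTL14 libraries (log2 fold change 2.65, SE 0.0558, adjusted p = 6.81e-20). A2M, a broad protease inhibitor, went from 3246 and 3246 to 5361 and 5223 CPM, while ORM1 and ORM2, the acid glycoproteins, were lower (-0.79 and -0.73).

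Albumin and its fetal counterpart moved apart. ALB stood at 4805 and 4945 CPM in the shCtrl libraries and 7371 and 7249 CPM in the shMETTL14 libraries (log2 fold change 0.58, SE 0.0338, adjusted p = 3.10e-12), and AFP, alpha-fetoprotein, at 10670 and 10770 CPM in the shCtrl libraries and 9025 and 9114 CPM in the shMETTL14 libraries (log2 fold change -0.24, SE 0.0517, adjusted p = 0.000522). Neither gene's groups overlapped, which held for 77.9% of all genes tested. Of 17 apolipoprotein and lipoprotein genes 8 rose, 5 of them in each setting, and 3 fell. APOM, which carries sphingosine phosphate, went from 33.1 and 31.6 to 166 and 156 CPM (log2 fold change 2.32, SE 0.0712, adjusted p = 5.85e-17), and PLTP, a phospholipid transfer protein, from 26.4 and 26.3 to 10.4 and 10.4 CPM (log2 fold change -1.34, SE 0.0993, adjusted p = 1.94e-10). APOB rose by 0.25 log2, a call lost in some settings. Of 18 transcription factors of liver identity, 4 were higher (22.2%), near the 23.1% of all genes tested. Another 8 were lower (44.4%), against 25.1% of all genes tested. CEBPB went from 76.4 and 74.4 to 32.05 and 32.9 CPM, FOXA1 from 151 and 142 to 89.5 and 90.7 CPM and CEBPD from 4.54 and 4.55 to 10.9 and 11.4 CPM. HNF4A, a central regulator of hepatocyte genes, stood at 182 and 179.8 CPM in shCtrl and 168 and 166 CPM in shMETTL14 and was not called (adjusted p = 0.0748). Among 26 nuclear receptors 8 rose, 3 of them in each setting, and 8 fell (30.8% each, beside 23.1% and 25.1% of all genes tested). Their median changed sign over the scalings (-0.14 to 0.05). The bile acid receptor NR1H4 stood at 41.8 and 36.7 CPM in shCtrl and 19.3 and 20.2 CPM in shMETTL14, and its target NR0B2 went from 17.3 and 17.9 to 37.2 and 39.4 CPM (log2 fold change 1.12, SE 0.0896, adjusted p = 6.39e-10).

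Some of the largest rises were of LIPH, TSPAN1 and PCDH1. LIPH, a membrane lipase that makes lysophosphatidic acid, stood at 0.949 and 0.862 CPM in the shCtrl libraries and 25.3 and 25.5 CPM in the shMETTL14 libraries (log2 fold change 4.81, SE 0.127, adjusted p = 6.72e-18). TSPAN1, a tetraspanin, went from 1.03 and 1.10 to 19.9 and 18.1 CPM, and PCDH1, a protocadherin, from 0.553 and 0.655 to 8.71 and 8.71 CPM. These 3 genes stood near or below 1 CPM in both control libraries. Of 52 genes of matrix and adhesion 26 rose and 13 fell, 18 of the rises and 12 of the falls in each setting. The median was 0.18, and 0.06 to 0.09 without 1 of the 4 libraries, lowest without shCtrl replicate 1. The median of all genes was then lower too, at -0.11 to -0.10. ITGA3, a laminin-binding integrin chain, stood at 3.36 and 3.38 CPM in the shCtrl libraries and 37.5 and 35.9 CPM in the shMETTL14 libraries (log2 fold change 3.44, SE 0.140, adjusted p = 7.83e-15), and ITGB4, which pairs with ITGA6, went from 4.66 and 4.79 to 20.5 and 18.6 CPM. CDH1, E-cadherin, went from 29.96 and 28.9 to 81.7 and 79.9 CPM. FN1, fibronectin, had the largest rise in CPM of any gene called higher, from 16470 and 16490 to 23020 and 22580 CPM (log2 fold change 0.47, SE 0.0376, adjusted p = 7.06e-10). The falls included THBS1, thrombospondin, at 808 and 796 CPM in the shCtrl libraries and 318 and 324 CPM in the shMETTL14 libraries (log2 fold change -1.32, SE 0.0394, adjusted p = 3.87e-17), LAMC1, a laminin chain (-0.66), and MMP2, a gelatinase, from 27.4 and 26.04 to 7.68 and 7.27 CPM. Further large rises were ITGA10 (2.98), the kidney cadherin CDH16 (2.96), and MYOF and AHNAK2, large membrane-associated proteins (2.87 and 2.81).

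The cytoskeleton list was mostly lower, with 27 falls and 3 rises among 43 genes (median -0.26). FSCN1, which bundles actin, stood at 118 and 121 CPM in the shCtrl libraries and 44.2 and 47.5 CPM in the shMETTL14 libraries (log2 fold change -1.38, SE 0.0926, adjusted p = 6.80e-11). ACTG1 and ACTB, the cytoplasmic actins, went from 2787 and 2810 to 1576 and 1547 CPM and from 2037 and 2002 to 1397 and 1421 CPM. As with ribosomal proteins, actin genes have near-identical copies, so these counts are uncertain.

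Guidance and Notch genes were called in both directions. SEMA3A, a secreted semaphorin, had the largest fall among genes of at least 5 CPM, from 5.14 and 5.07 to 0.749 and 0.635 CPM (log2 fold change -2.87, SE 0.217, adjusted p = 2.79e-10). SEMA6A, a membrane semaphorin, went from 63.8 and 60.2 to 28.1 and 28.6 CPM. The plexin receptors rose or were not called but for PLXNA1 (-0.37), and PLXNB2 went from 149.8 and 147 to 320.1 and 312 CPM and the coreceptor NRP1 from 114 and 109.6 to 199 and 199 CPM. In all 11 of the 25 genes of this system rose and 5 fell. Of 27 Notch genes 6 rose (22.2%) and 8 fell (29.6%), near the 23.1% and 25.1% of all genes tested. The receptors NOTCH1 and NOTCH3 went from 7.19 and 6.83 to 1.09 and 1.48 CPM and from 2.85 and 2.97 to 0.562 and 0.459 CPM, with the ligand JAG1 from 362 and 357 to 189.6 and 192 CPM and the target HES1 from 31.6 and 29.1 to 18.5 and 17.8 CPM. LFNG, an enzyme that adds sugars to the receptors, rose by 1.71 log2, and the ligand DLL4 by 2.66 from under 1 CPM.

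Interferon-stimulated genes that were called were higher with 1 exception. Of 34 tested, 19 rose and 1, ADAR, fell, a call lost in some settings (median 0.69). Over genes with a mean of at least 5 CPM over all 24 libraries the median was 0.42. GBP2, a guanylate-binding protein, went from 3.48 and 4.14 to 15.6 and 14.7 CPM (log2 fold change 1.99, SE 0.103, adjusted p = 4.77e-13). DDX58, the RNA sensor RIG-I, stood at 13.8 and 16.1 CPM in the shCtrl libraries and 30.99 and 33.2 CPM in the shMETTL14 libraries. OAS1, which senses double-stranded RNA, went from 4.70 and 4.86 to 11.3 and 11.2 CPM. The classic members ISG15 and IFI6, named for that role, were not called. ISG15 stood at 4.15 and 5.04 CPM in shCtrl and 4.84 and 4.76 CPM in shMETTL14, and IFI6 at 4.07 and 3.62 CPM in shCtrl and 3.59 and 3.81 CPM in shMETTL14. Of 15 genes of antigen presentation 9 rose and 1, TAP2, fell. NLRC5, the activator of class I genes, went from 1.58 and 1.24 to 10.6 and 8.96 CPM (log2 fold change 2.80, SE 0.172, adjusted p = 8.14e-12), and TAPBP, tapasin, from 78.97 and 77.3 to 128 and 129 CPM. TNFSF10, the death ligand TRAIL, stood at 0.909 and 0.724 CPM in the shCtrl libraries and 10.4 and 10.8 CPM in the shMETTL14 libraries (log2 fold change 3.69, SE 0.204, adjusted p = 1.42e-12). In the cell death list around it 11 of 28 genes rose, 4 of them in each setting, and 7 fell, with a median that changed sign over the scalings. The chemokine gene CCL16, made by liver, went from 1.19 and 0.897 to 10.1 and 8.85 CPM.

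Genes of mitosis and replication that were called were mostly lower, while cyclins and inhibitors of the G1 phase were called in both directions. Of 28 genes of mitosis 20 fell and 0 rose (median -0.35). PLK1, a mitotic kinase, stood at 148 and 133 CPM in the shCtrl libraries and 82.8 and 83.95 CPM in the shMETTL14 libraries (log2 fold change -0.75, SE 0.0700, adjusted p = 8.54e-09), and CDC20, an activator of the anaphase complex, went from 40.5 and 42.8 to 23.1 and 22.5 CPM. Of 33 replication genes 18 fell and 3 rose, all 3 rises lost in some settings. MCM7, part of the replicative helicase, went from 147 and 153 to 92.2 and 85.2 CPM. Of 16 tested D-type cyclins, their kinases and inhibitors, 5 rose and 6 fell. CCND2, a cyclin of the G1 phase, went from 26.1 and 27.4 to 7.37 and 8.25 CPM (log2 fold change -1.78, SE 0.0830, adjusted p = 8.18e-14), and the inhibitor CDKN2B from 11.5 and 11.3 to 26.1 and 25.9 CPM. CDKN1A, the p21 inhibitor, was named for its role and was not called (0.12, adjusted p = 0.118), and among 28 targets of p53 5 rose and 14 fell.

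Earlier m6A work named several messages as targets of the mark, and 16 of 20 on that list were tested. Of these 10 fell, all in each setting, and 2 rose, both lost in some. YAP1, a coactivator of the Hippo pathway, stood at 289 and 283 CPM in the shCtrl libraries and 166 and 169.6 CPM in the shMETTL14 libraries (log2 fold change -0.77, SE 0.0823, adjusted p = 1.22e-07), and CTNNB1, beta-catenin, went from 696 and 687 to 540.4 and 529 CPM. No m6A was measured in these libraries, so whether a gene that changed carries the mark cannot be read from them.

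Genes with few counts gave large folds with wide errors. FRZB, a secreted Wnt antagonist, had no count in either shCtrl library and stood at 0.967 and 1.16 CPM in shMETTL14. RAMP1, a receptor partner, went from 0.0790 and 0.172 to 3.09 and 2.22 CPM (log2 fold change 4.32, SE 0.407, adjusted p = 9.52e-09), and PAEP, a secreted lipocalin, from 0.198 and 0.310 to 4.56 and 4.83 CPM (log2 fold change 4.16, SE 0.267, adjusted p = 1.67e-11). On the other side KLHDC7B went from 2.21 and 1.93 to 0.125 and 0.0706 CPM and VANGL2, a planar polarity gene, from 1.78 and 2.04 to 0.187 and 0.176 CPM. The control or knockdown values of these genes lay near the 0.0936 to 0.119 CPM that 3 counts give, so their folds are known less well than those of TXNIP or ASNS.

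The untreated shSETD2 libraries tell which changes differed from those of another hairpin line. Both knockdown lines share the shCtrl libraries, so their values against shCtrl are only set side by side, and the difference rests on a direct test of shMETTL14 against shSETD2, in which 52.2% of genes were called (23.01% higher and 29.2% lower in shMETTL14). LIPH was 4.02 log2 higher in shMETTL14 than in shSETD2 (adjusted p = 1.24e-17; 0.79 in shSETD2 against shCtrl). ITGA3 was 3.50 higher (adjusted p = 3.70e-15) and stood at 3.24 ± 0.0252 CPM (SD, n = 2) in shSETD2, against 3.37 CPM in shCtrl. PCDH1 (4.10, adjusted p = 4.45e-14), ITGA10 (3.42) and AHNAK2 (2.49) were likewise higher in shMETTL14. FTL differed by -1.54 log2, lower in shMETTL14 (adjusted p = 6.45e-13), and stood 0.09 log2 from shCtrl in shSETD2. Of the 79 ribosomal protein genes 76 were lower in shMETTL14 than in shSETD2, as were 40 of the 43 nucleolar genes, 28 of the 28 mitotic genes and 17 of the 20 synthetases. Against shCtrl, shSETD2 had medians of 0.14 for the ribosomal proteins, -0.17 for the nucleolar genes, 0.33 for the mitotic genes and -0.33 for the synthetases. In that comparison, in which 18.9% of genes were lower and the median of all genes was 0.02, 23 of the 43 nucleolar genes and 13 of the 20 synthetases were lower in shSETD2, against 1 of the 79 ribosomal proteins and 0 of the 28 mitotic genes.

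Gene lists and single genes also stood away from shCtrl in both knockdown lines. In shSETD2 against shCtrl, 21.6% of all genes were higher and 18.9% lower. There 19 of 22 coagulation genes were higher and 0 lower (median 1.11), and 17 of 21 complement genes higher and 3 lower (0.73). Of 31 fatty acid oxidation genes 24 were higher and 3 lower (0.49), and of 18 gluconeogenesis genes 10 and 2 (0.50). Of 26 genes of the ATF4 response 17 were lower and 4 higher (-0.30). TXNIP was 3.39 log2 higher in shSETD2 than in shCtrl and a further 1.44 higher in shMETTL14 (adjusted p = 1.03e-15). ASNS stood at -0.89 log2 in shSETD2 against shCtrl and differed by a further -1.29 in shMETTL14 (adjusted p = 3.68e-16). For G6PC and TNFSF10 the direct difference missed the threshold, at 0.09 and 0.05 log2 (adjusted p = 0.571 and 0.773), and they stood 5.33 and 3.65 log2 above shCtrl in shSETD2. PCK1 differed by -2.40 log2, lower in shMETTL14 than in shSETD2 (adjusted p = 2.25e-13). ALB was lower in shMETTL14 than in shSETD2 (-1.29, adjusted p = 3.54e-18), and so were 24 of the 27 cholesterol genes and 18 of the 20 lipogenesis genes. Against shCtrl, shSETD2 had 24 of these cholesterol genes higher and 0 lower, and 17 of the lipogenesis genes higher and 2 lower. The medians against shCtrl were 1.19 and 0.75 in shSETD2, and 0.004 and -0.24 in shMETTL14. The integrin and matrix list went the other way, with 32 of 52 genes higher and 8 lower in shMETTL14 than in shSETD2.

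The libraries taken after 1 h of actinomycin D give the same contrast in further libraries of the same lines. There 48.5% of genes were called, 25.9% higher and 22.6% lower. Of the 3433 genes higher at 0 h, 3380 (98.5%) had the same sign at 1 h, and of the 3733 lower, 3630 (97.2%), against 71.1% of the 7721 genes not called at 0 h. A total of 2858 and 2833 were called again in their direction, while 2 and 4 were called in the opposite one. TXNIP stood at 4.54 log2 at 1 h, LIPH at 4.79, ITGA3 at 3.47, ASNS at -2.29, HSPA5 at -1.30 and FTL at -1.36. The difference between the times passed the threshold for 16 genes (0.107%), 8 (0.0537%) in each direction. They include MYC (-0.74 at 0 h and -1.23 at 1 h) and THBS1 (-1.32 and -1.04). The early response gene IER3, named after its value was seen, fell by 0.23 log2 at 0 h and by 1.61 at 1 h.

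**Figure D5:**
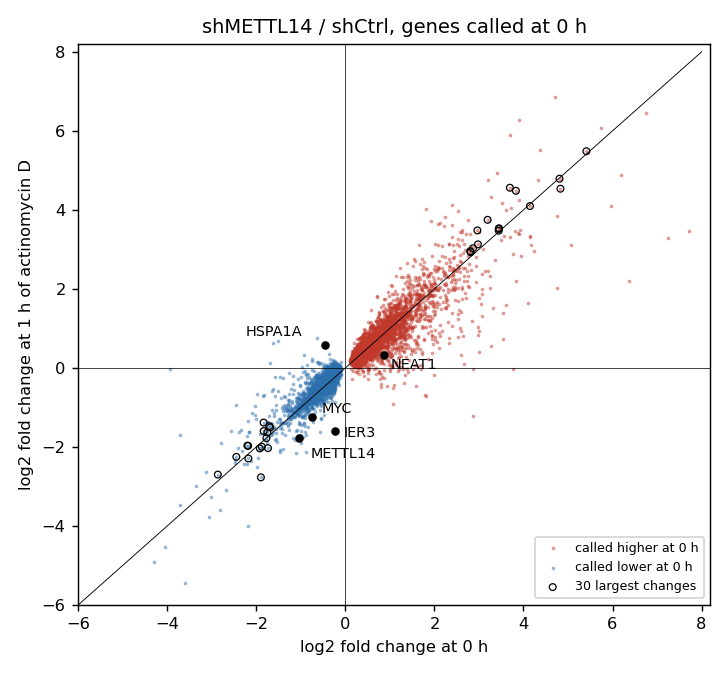
Log2 fold change of shMETTL14 over shCtrl at 0 h (horizontal) and at 1 h of actinomycin D (vertical) for the 7166 genes called at 0 h, with open circles on the 30 largest changes among genes of at least 5 CPM and black points on 5 of the 16 genes whose difference between the times was called. The points follow the line of equality, and HSPA1A lies below 0 at 0 h and above 0 at 1 h.

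Half-lives of some of these messages can be set beside their levels, though they were derived from the same 0 h libraries and are not independent of them. In the authors' deposited table, TXNIP had a half-life of 2.44 h in shCtrl and 1.70 h in shMETTL14. For ARRDC4 the authors' deposited table gives 4.25 and 2.52 h, and for CPT1A 14.96 and 14.8 h. TNFSF10, which also rose, has 6.61 h in shCtrl and 22.03 h in shMETTL14 in the authors' deposited table. It stood at 0.909 and 0.724 CPM in the shCtrl libraries at 0 h, so its shCtrl half-life rests on few counts. Among genes that fell, the authors' deposited table gives YAP1 18.3 h in shCtrl and 5.19 h in shMETTL14, and MYC 1.42 and 1.07 h. For NOTCH1 the authors' deposited table gives 2.38 and 2.92 h, and for DDIT4 1.07 and 1.02 h. Not every gene picked by the naming rule has a value in the authors' deposited table, and G6PC, LIPH and ASNS have none. Of those with a value there, most have a shorter half-life in shMETTL14, whether higher, lower or not called at 0 h. A shorter value is thus not particular to 1 direction of change among them. How often it is shorter over all genes of that table was not computed. The table holds 1 value per line with no error, so none of these differences could be tested.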

How the data were processed

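RNA of 24 HepG2 libraries was sequenced from total RNA with ERCC spike-ins added, per the labels' protocols. The authors deposited gene-level count values and RPKM values (counts per gene length and depth) in 1 table, and half-lives in hours per line in another. The submitters' processing notes name the build GRCh37 and list HTSeq 0.6.1p1 with TopHat and cutadapt. No source used here gives their settings, the annotation release or the use of strand, so overlapping genes are named as uncertain. The table held 0 ERCC entries, so nothing was scaled to spike-ins. Its 0 value columns of no sample needed no exclusion, and 28 of 29 symbols turned into numbers were named from gene IDs.

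In R 4.3.3, edgeR 4.0.16 tested the counts by robust quasi-likelihood F tests (two-sided), with TMM scaling, filterByExpr and a Benjamini-Hochberg threshold of 0.05. All 24 libraries entered 1 model of 12 group means with 12 residual degrees of freedom, and the biological coefficient of variation was 5.04%. Every adjusted p is from it unless another setting is named. CPM were computed from the deposited counts with the TMM factors. The deposited RPKM values served an alternative with limma 3.58.1 on log2(RPKM + 0.1), and DESeq2 1.42.0 served another. Replicates differed by more than sampling noise (chi-square over degrees of freedom 2.15 in shCtrl and 1.87 in shMETTL14), so each was counted as 1 replicate. Overlap means at least 10% of exon bases shared with another counted gene, from GENCODE exons matched by ID; transcript GC content was found for 97.5% of genes tested. Promoters came from RefSeq (GRCh38.p14), and 11029 of the tested genes matched.

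The 68 gene lists and the comparison itself were chosen with earlier results of these data known. Named genes were METTL14, METTL3 and SETD2 and, of called genes whose groups did not overlap, the 15 largest rises and falls by fold where the larger group mean reached 5 CPM, the 6 largest by CPM difference and the 5 largest by fold at 1 to 5 CPM. Each list added up to 4 called members in each direction with the smallest p and its most abundant member. Others are named with the reason.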

Additional observations from a re-analysis of the deposited data

Results flagged for a closer look

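The loss of METTL14 itself differed between the times. The METTL14 log2 fold change was -1.03 in untreated cells and -1.79 after 1 h of actinomycin D, where it stood at 24.5 CPM in shCtrl and 7.08 CPM in shMETTL14. The difference between the 2 contrasts was -0.75 log2, from a test of the difference itself (adjusted p = 0.0485, just under the threshold), with n = 2 libraries per group. The 30 genes with the largest changes among those of at least 5 CPM showed no such difference past the threshold. The cause was not tested.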

How the results depend on the processing

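The count of called genes stayed within 1.5 times of 7166 in all settings run (5647 to 8847). With only genes tested whose mean over all 24 libraries was at least 5 CPM (9995 genes), 2214 were higher and 3529 lower. Of these, 266 were higher and 112 lower by over 1 log2, and fewer genes were tested there. With limma on RPKM, 3690 were higher, 2790 lower and 146 lower by over 1 log2. Without 1 of the 4 libraries, between 2082 and 2217 genes were higher and between 4127 and 4211 lower. With the scaling factors of all 24 libraries kept, an alternative chosen after seeing the data, the left-out fits gave 2668 to 2823 higher and 2976 to 3068 lower. Scaling by library size alone gave 3974 higher and 3072 lower, relative log expression factors 3000 and 4467, DESeq2 2603 and 4172, and removal of the GC trend 3318 and 5406. METTL14 ranged from -1.19 to -0.95 log2. Of the named genes, 2 changed sign with the GC trend removed: the HADHA log2 fold change became -0.06945 (adjusted p = 0.0313) and the DUSP3 log2 fold change -0.07926 (adjusted p = 0.0430); the cause was not tested. Between the 2 groups compared, same-numbered replicates did not deviate together (correlation of deviations -0.134). Over all 66 pairs of groups the correlation ran from -0.197 to 0.653 (median 0.167), and 36 were over 0.1. The main model held no replicate block. With such a block 7740 genes were called (3671 higher and 4069 lower), and with the numbers crossed, chosen after seeing the data, 7571. Low counts limit the folds of genes under 1 CPM.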

Other observations

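Lists of drug metabolism and amino acid breakdown changed in both directions. Of 28 cytochromes and related oxidising enzymes 12 rose and 6 fell. CYP3A5 went from 10.4 and 9.52 CPM in shCtrl to 40.04 and 35.98 CPM in shMETTL14, and the fetal enzyme CYP3A7 from 5.73 and 5.72 to 19.4 and 18.6 CPM. ADH4, an alcohol dehydrogenase, went from 47.4 and 48.9 to 15.3 and 16.3 CPM (log2 fold change -1.61, SE 0.0588, adjusted p = 1.46e-15). Of 36 conjugating enzymes and transporters 14 rose and 7 fell, and 7 of the rises held in each setting; ABCG2, an efflux pump, went from 20.04 and 17.97 to 7.33 and 7.20 CPM. Of 28 genes of the urea cycle and amino acid breakdown 4 rose and 11 fell, among the falls HPD, a tyrosine catabolic enzyme, from 172 and 175 to 83.2 and 87.7 CPM. Of 7 tested metallothioneins 5 rose, 2 of them in each setting, and 0 fell, and MT2A went from 19.1 and 20.4 to 39.6 and 38.5 CPM.

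Among 39 genes of autophagy and the lysosome 11 rose, 6 of them in each setting, and 10 fell. Those shares, 28.2% and 25.6%, are near the 23.1% and 25.1% of all genes tested. CTSB, a cathepsin, went from 386 and 397 to 573 and 565 CPM, and LAMP1, a lysosomal membrane protein, from 289 and 286 to 200.1 and 198 CPM. Of 13 genes encoded on the mitochondrial genome 2 rose (15.4%), both lost in some settings, and 3 fell (23.1%), near the 25.1% of all genes tested. MT-ND1 went from 5778 and 5669 to 4198 and 4242 CPM (log2 fold change -0.44, SE 0.0410, adjusted p = 8.17e-09). Of 18 hypoxia genes 8 rose and 4 fell, 4 and 2 of them in each setting, with NDRG1 going from 32.8 and 33.1 to 74.3 and 69.6 CPM and VEGFA from 144 and 135 to 96.4 and 94.8 CPM. Of 54 genes of RNA decay 26 fell and 6 rose, 21 and 2 of them in each setting; the decapping enzyme DCP2 went from 61.9 and 59.7 to 117 and 120.2 CPM (log2 fold change 0.97, SE 0.125, adjusted p = 4.15e-06) and the nuclear exonuclease XRN2 from 357 and 349.9 to 249 and 255 CPM. NEAT1, the RNA of paraspeckles, went from 118 and 120.1 to 221 and 214 CPM, and HULC, a noncoding RNA of liver cancer, from 5.97 and 5.48 to 2.06 and 2.05 CPM.

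In the signalling lists, values went both ways, beside 23.1% of all genes tested higher and 25.1% lower. Of 23 Wnt genes 8 rose and 13 fell, 3 and 9 of them in each setting; of 27 TGF-beta and BMP genes 7 and 10, and of 18 YAP genes 6 and 8. Of 27 AP-1 and immediate early genes 3 rose and 15 fell, and of 17 NF-kB genes 6 and 6, with 1 of those rises held in each setting. Of 19 ERK feedback genes 5 rose and 6 fell, of 14 lipase and lipid droplet genes 6 and 4, and of 17 clock genes 3 and 8. Of 23 genes that write, erase or read H3 lysine 36 methylation 0 rose and 14 fell. Of 19 replication-dependent histones 6 rose, 2 of them in each setting, and 0 fell.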
